A study of Homo sapiens with 90 samples.

Results

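Kruppel-like factors (KLFs) were followed through the response of BxPC-3 cells to cetuximab and through the parallel culture without it. The set held 10 genes, KLF2, KLF3, KLF4, KLF5, KLF6, KLF7, KLF9, KLF10, KLF11 and KLF13, chosen by gene symbol. Of these, 9 had a probe on the array, 12 probes in all out of 47292, and those 9 were among the 12735 genes tested. No probe was listed for KLF11, a TGF-beta-inducible repressor, so it has no value here. A probe was to be marked as background if its mean over all 90 arrays lay under 4.24 on the log2 scale, the median of all probe means. All 12 probes lay above that level and 0 under it, with 1 of the 3 KLF10 probes (4.33) and the KLF7 probe (4.36) closest to it. BxPC-3 is an established line of human pancreatic ductal adenocarcinoma, and cetuximab is a therapeutic antibody against EGFR, the receptor for epidermal growth factor. The cetuximab arm received 10 µg/ml cetuximab from time 0 and the negative control arm received none. Cells of both arms were cultured in medium with 2% serum and had been starved in 0.2% serum, with time 0 set 24 h after starvation. Each arm had 3 arrays (Illumina HumanHT-12 v4) at each of 15 times, which were time 0, 5, 10 and 30 min, 1, 2, 4 and 8 h, and days 1 to 7. The labels do not say whether the 3 arrays of a group came from separate cultures, so p-values measure the spread between these arrays, which may be technical, and the model is 1 cell line.

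KLFs are transcription factors with zinc fingers at the carboxyl end that bind GC-rich and CACCC-type sequences in promoters. Several of them are immediate early genes, whose transcripts rise quickly after serum or growth factors and fall again, and others follow hormones, TGF-beta or differentiation. By the partners they recruit they are commonly sorted into CtBP-binding repressors (KLF3), mainly activating members (KLF2, KLF4, KLF5, KLF6, KLF7) and SIN3-binding repressors (KLF9, KLF10, KLF11, KLF13). In epithelia, KLF4 is linked to differentiation and arrest and KLF5 to proliferation.

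All array medians lay between 4.29 and 4.36. The defining markers of a ductal epithelial line (KRT7, KRT8, KRT18, KRT19, EPCAM and CDH1) were all above background, 6 of 6, with means of 7.00 to 12.02. Acinar markers were above it in 0 of 3 cases, endothelial ones in 1 of 4 (means 4.00 to 4.27), fibroblast ones in 3 of 4 (3.87 to 4.35) and leukocyte ones in 1 of 3 (4.05 to 5.56, the highest being CD14). The part of other cell types in the results was not tested beyond these levels. In bulk RNA, fewer cells of a type and less RNA per cell cannot be told apart.

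Promoter sequence is shown for the 3 members whose transcripts fell furthest in culture, KLF2, KLF4 and KLF6, because their time courses were also the most alike. RefSeq windows (GRCh38.p14) were found for 8 of the 10 members, and not for KLF3 and KLF10. The 150 bases before the start site are KLF2 at chr19:16324676-16324825 on the plus strand, KLF4 at chr9:107489770-107489919 on the minus strand and KLF6 at chr10:3785210-3785359 on the minus strand, each ending at the base before the annotated start. They are written 5′ to 3′ with GC boxes (GGGCGG, either strand) and a match to the MEF2 consensus in capitals.
KLF2: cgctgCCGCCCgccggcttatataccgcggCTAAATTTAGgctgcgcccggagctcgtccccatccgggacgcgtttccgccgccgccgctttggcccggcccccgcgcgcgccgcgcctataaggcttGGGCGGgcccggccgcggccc
KLF4: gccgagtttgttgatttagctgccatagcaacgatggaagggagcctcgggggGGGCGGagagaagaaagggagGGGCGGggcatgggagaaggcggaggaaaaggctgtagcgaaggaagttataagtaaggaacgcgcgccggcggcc
KLF6: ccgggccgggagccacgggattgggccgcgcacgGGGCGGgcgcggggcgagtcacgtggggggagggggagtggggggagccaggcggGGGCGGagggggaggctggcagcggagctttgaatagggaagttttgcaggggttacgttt
Over the 250 bases searched before each start, GC boxes began at -250, -244, -145 and -21 in KLF2, at -190, -164, -97 and -76 in KLF4, and at -116 and -61 in KLF6. A GC box was present in 42.6% of 35116 windows of the same length. The MEF2 consensus, present in 2.8% of windows, was found at -120 in KLF2 and in no other member that had a window. KLF2 is a known target of the ERK5 and MEF2 route. CACCC (54.7% of windows, either strand) was not in the KLF2, KLF4 or KLF6 windows. These matches describe the letters only.

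The largest movements of the family were shared by both arms and followed time 0. The parts of the earlier starvation, the handling at time 0 and the time in culture cannot be told apart. In the control arm, 6 of 9 members were lower over days 1 to 7 than at time 0 and 0 were higher (limma, adjusted p under 0.05), where 21.1% of all genes were lower and 46.1% moved either way. The median over the members was -0.71 log2, against 0.0086 over all genes. In the cetuximab arm, 6 of 9 were lower, where 24.3% of all genes were. The plot of expression by time shows that KLF2, KLF4 and KLF6 made most of this fall between 2 h and day 1.

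**Figure D1:**
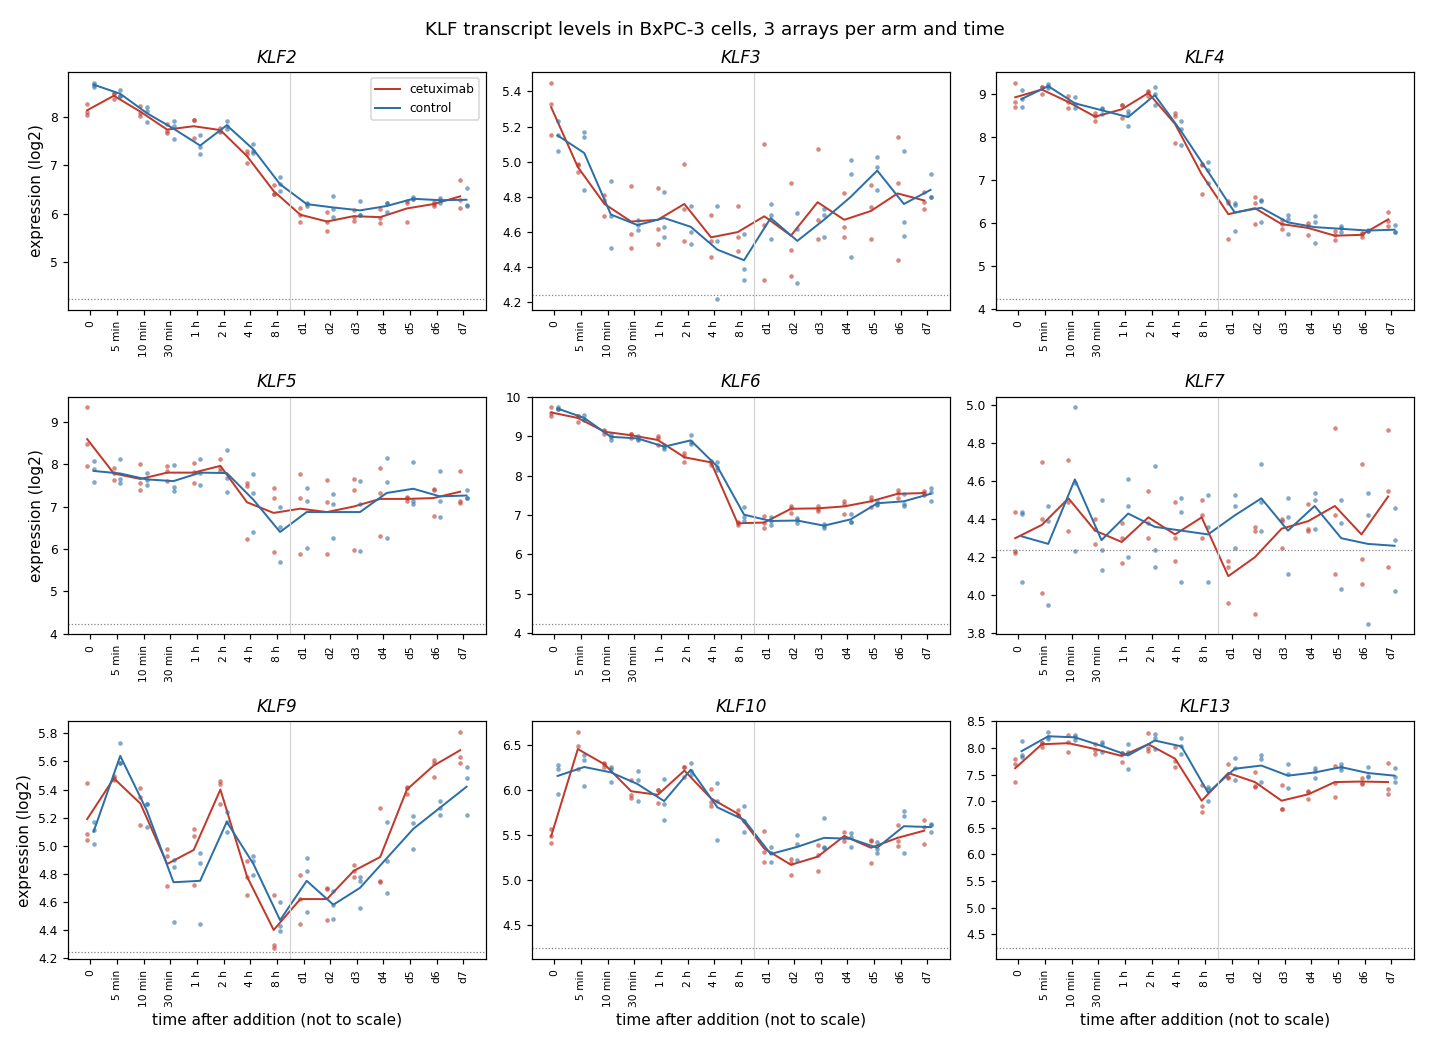
Expression (log2, vertical axis, scaled per panel) of the 9 measured members against time after addition of cetuximab (horizontal axis, not to scale), with 1 point per array, lines through the means of 3 arrays, the cetuximab arm in red and the control arm in blue; the dotted line is the background level of 4.24. KLF2, KLF4 and KLF6 fell by more than 2 log2 units in both arms, while KLF7 stayed within 3.85 to 4.99 throughout.

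KLF6, a broadly expressed and growth-factor-inducible member also described as a tumour suppressor, fell with the smallest standard error of the members. Over the days it ranged from 6.68 to 7.68 in 21 control arrays, with a median of 6.94, against 9.74, 9.69 and 9.70 at time 0. In cetuximab cells it ranged from 6.68 to 7.63 over the days, with a median of 7.23, against 9.59, 9.51 and 9.74 at time 0. No array of the days reached any array of time 0 in either arm, and the share of all genes separated this way was not counted. The difference was -2.35 ± 0.065 log2 in cetuximab cells and -2.64 ± 0.065 in control cells (SE, limma, adjusted p = 6.84e-43 and 8.26e-46), which is 5.11-fold and 6.22-fold lower. In control cells KLF6 was already lower at 10 min (-0.72 ± 0.085, adjusted p = 1.95e-09). The steepest single step was 8 h against 4 h, -1.55 ± 0.085 in cetuximab cells and -1.23 ± 0.085 in control cells. KLF6 then recovered in part, with day 7 above day 1 by 0.75 ± 0.085 in cetuximab cells and by 0.70 ± 0.085 in control cells (adjusted p = 2.07e-11 and 1.94e-10).

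KLF4 and KLF2 fell over the same hours. KLF4, which promotes epithelial differentiation and cell cycle arrest, was lower over the days than at time 0 by a difference of -2.94 ± 0.14 log2 in cetuximab cells and -2.88 ± 0.14 in control cells (7.67-fold and 7.36-fold lower, adjusted p = 1.48e-29 and 5.04e-29). Its means first dipped, from 9.11 in cetuximab and 9.19 in control arrays at 5 min to 8.48 and 8.63 at 30 min. They were 8.65 and 8.47 at 1 h, and returned to 9.03 ± 0.064 and 8.98 ± 0.22 at 2 h (SD, n = 3). KLF4 was first called lower in controls at 4 h (-0.76 ± 0.18, adjusted p = 0.00115), later than KLF6. Its second probe gave -2.34 ± 0.11 in cetuximab cells and -2.44 ± 0.11 in control cells, and both probes ran together over the 90 arrays (r = 0.99). KLF2, the flow-induced quiescence factor of endothelium, differed by -2.09 ± 0.089 in cetuximab cells and -2.46 ± 0.089 in control cells (4.25-fold and 5.52-fold lower). Like KLF6 it was already lower in controls at 10 min (-0.59 ± 0.12, adjusted p = 0.000267).

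KLF10, a TGF-beta-inducible early gene with antiproliferative activity, differed between the days and time 0 by -0.11 ± 0.089 in cetuximab cells, which did not pass (adjusted p = 0.311), and by -0.71 ± 0.089 in control cells (adjusted p = 2.16e-10). The cetuximab value rests on low arrays at time 0, with a mean of 5.49, against 6.46 at 5 min. From 5 min to 2 h the KLF10 mean was 6.18 in cetuximab cells and 6.13 in control cells. Over the days it was lower in both arms, at 5.38 and 5.45. KLF13 differed by -0.32 ± 0.11 in cetuximab cells and by -0.38 ± 0.11 in control cells (adjusted p = 0.00885 and 0.00198). KLF3, the CtBP-binding repressor, differed by -0.59 ± 0.11 in cetuximab cells and by -0.40 ± 0.11 in control cells (adjusted p = 9.03e-06 and 0.00248). Against the controls of time 0 to 2 h together, KLF3 differed by only -0.06 ± 0.059 (adjusted p = 0.407), and at 30 min alone it was already lower than at time 0 (-0.51 ± 0.15, adjusted p = 0.0104). KLF7, a neuronal member, did not pass in either arm and stayed near the background level. KLF3, KLF5, KLF9 and KLF13 had their lowest control mean at 8 h, and 8 of 9 members were lower there than at time 0 in controls, where 16% of all genes were. Without arrays numbered 3 the KLF13 difference in cetuximab cells was -0.27 (adjusted p = 0.0911).

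KLF9, a hormone-responsive repressor known as a glucocorticoid and thyroid hormone target, moved in both directions over the course. In controls it had 5.59, 5.73 and 5.59 at 5 min, against 5.01, 5.11 and 5.17 at time 0. That was a rise of 0.54 ± 0.12 (adjusted p = 0.00426), where 1.92% of all genes were higher. It was lower than time 0 at 8 h (-0.63 ± 0.12, adjusted p = 3.36e-05). It then climbed through the week, with day 7 above day 1 by 1.06 ± 0.12 in cetuximab cells and by 0.67 ± 0.12 in control cells (adjusted p = 6.18e-11 and 7.22e-06). KLF6, KLF9 and KLF2 were called higher at day 7 than at day 1 in cetuximab cells and KLF6, KLF9 and KLF10 in control cells, 3 of 9 in each arm, where 21.1% and 22% of all genes were higher. Between 8 h and day 1, KLF13 turned the other way from KLF2, KLF4 and KLF10. KLF13 was higher at day 1 than at 8 h by 0.52 ± 0.14 in cetuximab cells and by 0.45 ± 0.14 in control cells (adjusted p = 0.0018 and 0.00841), and the other 3 were lower in both arms. In controls those 4 calls compare with 33.7% of all genes that differed, and without the arrays numbered 3 from 4 h to day 4, KLF4 alone kept its call.

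Against this background the differences between the arms were small. The early window is the mean difference, cetuximab minus control, over the 7 times from 5 min to 8 h, and the late window is the same over days 1 to 7, so each rests on 21 arrays per arm. In the early window 0 of 9 members passed (10.1% of all genes did), and 1 had an unadjusted p under 0.05, KLF13 (-0.11 ± 0.053, limma, unadjusted p = 0.0363, adjusted p = 0.184). In the late window 1 of 9 members was higher (KLF6), where 7.39% of all genes were, and 2 were lower (KLF13 and KLF2), where 5.96% were. With 13.3% of all genes called in either direction, 3 of 9 members is a small count. The median late difference of the members was -0.031 log2 and that of all genes 0.0032.

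**Figure D2:**
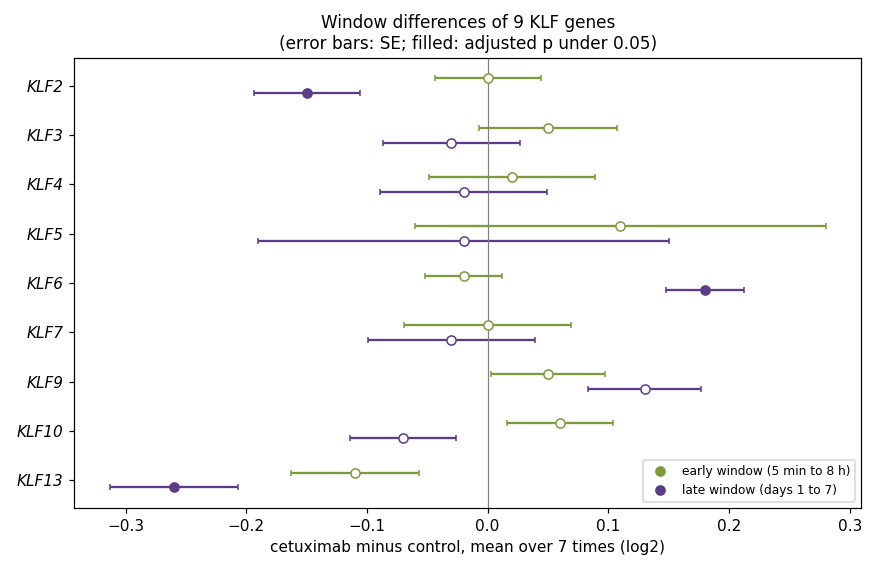
Difference cetuximab minus control (log2, horizontal axis) of each measured member (vertical axis) in the early window (green) and the late window (purple), with bars of 1 SE and filled points at an adjusted p under 0.05. KLF6 lies at 0.18 and KLF13 at -0.26 in the late window, and the bar of KLF5 is the widest at 0.17.

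KLF6 was the 1 member called higher with cetuximab over the days. On day 3 it had 7.16, 7.23 and 7.11 in cetuximab cells, against 6.72, 6.78 and 6.68 in control cells. On day 2 it had 7.06, 7.19 and 7.23 in cetuximab cells, against 6.92, 6.80 and 6.87 in control cells, and on day 4 it had 7.35, 7.27 and 7.03 in cetuximab cells, against 6.82, 6.83 and 7.02 in control cells. Every cetuximab array lay above every control array on these 3 days, by the least margin on day 4. Arms separated this way in 7%, 8.38% and 9.52% of all genes on days 2, 3 and 4. The differences were 0.30 on day 2, 0.44 on day 3 and 0.33 on day 4 (limma, SE 0.085, adjusted p = 0.0498, 0.000382 and 0.0153), where 0.95%, 1.37% and 1.74% of all genes were higher. On day 5 the arms were back within 0.05 of each other. Over all 7 days KLF6 was higher by 0.18 ± 0.032 (1.14-fold, 95% interval 0.12 to 0.25, adjusted p = 1.08e-05), with the same sign on 6 of 7 days. This call was kept under all 23 alternatives (0.14 to 0.22).

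At 2 h KLF6 was lower with cetuximab. It had 8.58, 8.34 and 8.49 in cetuximab cells, against 8.81, 9.03 and 8.87 in control cells, with no overlap (6.55% of all genes), a difference of -0.43 ± 0.085 (adjusted p = 0.00247, where 0.298% of all genes were lower). At 8 h it had 6.75, 6.79 and 6.83 in cetuximab cells, against 7.20, 6.95 and 6.86 in control cells, again without overlap (5.5% of all genes), and this difference of -0.21 did not pass. In the step between 1 and 2 h it was called lower in cetuximab cells (-0.44 ± 0.085, adjusted p = 0.00239), and in the step between 2 and 4 h in control cells (-0.67 ± 0.085, adjusted p = 1.15e-08). The late window exceeded the early one by 0.21 ± 0.046 (adjusted p = 0.00122), which made KLF6 the 1 member of 9 to pass this test of change between windows, where 6.99% of all genes did. Without the arrays numbered 2 that value was 0.22 with an adjusted p of 0.0522. The single-time calls were less firm, and without arrays numbered 2 the 2 h, day 2, day 3 and day 4 differences (-0.42, 0.25, 0.43 and 0.27) had adjusted p-values of 0.417, 0.667, 0.0889 and 0.426. Without arrays numbered 3 the 2 h and day 2 values were -0.38 and 0.26 (adjusted p = 0.0842 and 0.272), and without arrays numbered 1 the day 4 value was 0.22 (adjusted p = 0.444). The day 2 call was kept under 7 of 22 alternatives and day 3 under 20 of 22.

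**Figure D3:**
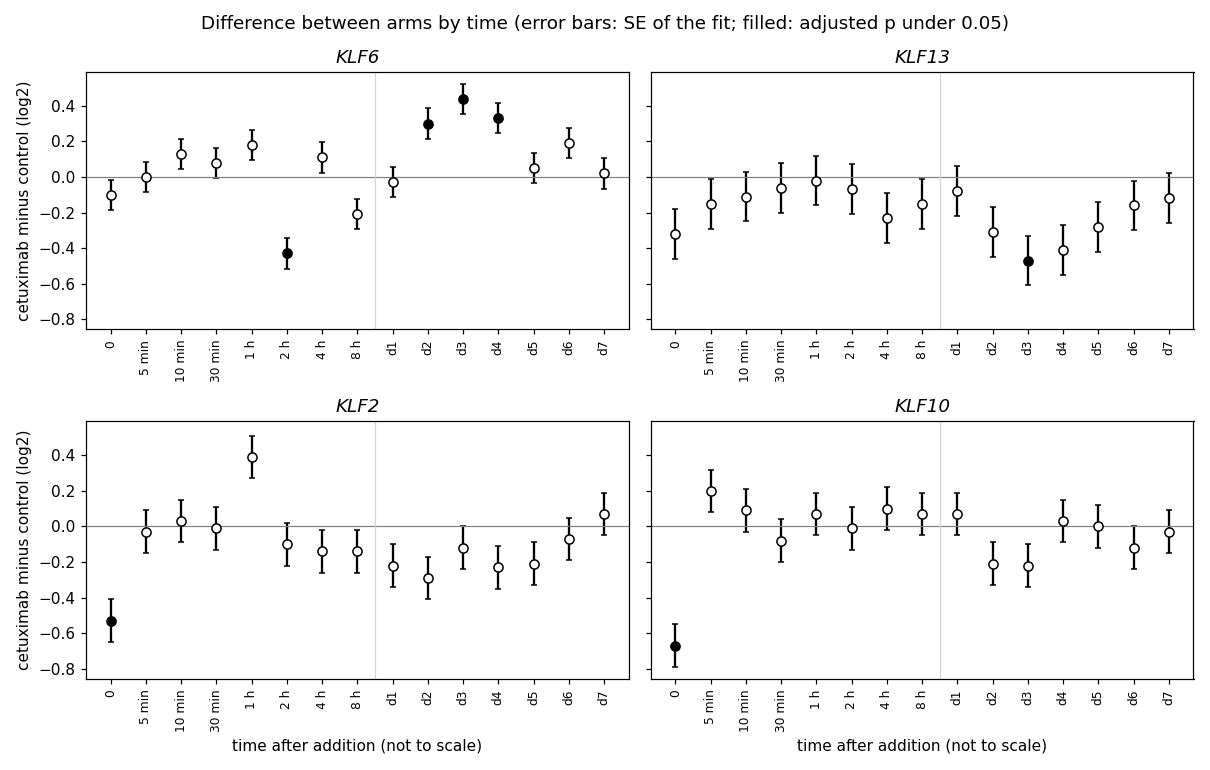
Difference between arms (cetuximab minus control, log2, vertical axis) at each time (horizontal axis, not to scale) for KLF6, KLF13, KLF2 and KLF10, with bars of 1 SE of the fit and filled points at an adjusted p under 0.05. KLF6 lies at -0.43 at 2 h and at 0.44 on day 3, KLF13 is below 0 at every time, and KLF2 and KLF10 are called lower only at time 0.

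KLF13, a repressor that also activates CCL5 in T lymphocytes, had a lower mean with cetuximab at every time. On day 4 it had 7.04, 7.17 and 7.19 in cetuximab cells, against 7.43, 7.57 and 7.63 in control cells. On day 6 it had 7.44, 7.33 and 7.34 in cetuximab cells, against 7.65, 7.48 and 7.46 in control cells. The arms did not overlap on these days, as in 7.7% and 7.01% of all genes, while on day 3 the highest cetuximab array overlapped the lowest control. On day 3 it had 6.86, 6.86 and 7.31 in cetuximab cells, against 7.25, 7.51 and 7.69 in control cells, a difference of -0.47 ± 0.14 (adjusted p = 0.0463, where 1.11% of all genes were lower). Over the days the difference was -0.26 ± 0.053 (1.2-fold lower, adjusted p = 0.000119), with cetuximab lower on all 7 days, as for 4.42% of all genes. It was also lower at all 7 early times (5.19% of all genes) and at time 0, where it had 7.70, 7.37 and 7.79 in cetuximab cells, against 7.87, 7.83 and 8.13 in control cells. The arms did not overlap at time 0 (9.35% of all genes) and at 5 min (7.33%). Relative to the difference at time 0, the late difference was 0.06. Late minus early did not pass for KLF13, so the difference was not shown to be particular to the days. Without arrays numbered 2 the late difference was -0.19 (adjusted p = 0.107), and the day 3 call, lost without arrays numbered 1, 2 or 3 (adjusted p = 0.0642, 0.696 and 0.162), was kept under 10 of 22 alternatives.

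KLF2 was lower over the days, with a difference of -0.15 ± 0.044 (1.11-fold, adjusted p = 0.0123), with cetuximab lower on 6 of 7 days. The arms already differed by -0.53 at time 0. Relative to that the late difference had the other sign, 0.38, and did not pass. This relative value passed with array weights (0.42), with the replicate number as a random block within time (0.38) and without arrays numbered 3 (0.48). On day 1 it had 5.98, 6.12 and 5.84 in cetuximab cells, against 6.22, 6.21 and 6.17 in control cells, and on day 5 it had 6.23, 6.27 and 5.82 in cetuximab cells, against 6.30, 6.34 and 6.30 in control cells. Those were the 2 days on which the arms did not overlap, as in 5.33% of all genes on day 1 and 6.52% on day 5, and no single day passed the test. The late call was lost when arrays numbered 1, 2 or 3 were left out in turn (-0.15, -0.18 and -0.13, adjusted p = 0.0567, 0.0811 and 0.081), and also without day 2 or day 4.

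At time 0, the moment of addition, the arms already differed in KLF2 and KLF10, 2 of 9 members lower, where 1.21% of all genes were lower. KLF10 had 5.49, 5.41 and 5.57 in cetuximab arrays, against 6.28, 5.96 and 6.24 in control arrays, a difference of -0.67 ± 0.12 (adjusted p = 0.000131). KLF2 had 8.05, 8.11 and 8.27 in cetuximab arrays, against 8.67, 8.71 and 8.63 in control arrays, a difference of -0.53 ± 0.12 (adjusted p = 0.00396). No cetuximab array reached a control array for either gene, as in 9.35% of all genes. The second KLF10 probe gave -0.76 ± 0.13 (adjusted p = 0.000146). Its remaining probe, which targets a separate transcript and tracked the first with r = 0.11 over 90 arrays, gave -0.23 ± 0.14 (adjusted p = 0.487). By 5 min KLF10 had 6.49, 6.24 and 6.65 in cetuximab arrays, against 6.34, 6.39 and 6.05 in control arrays, so that the arms overlapped. In the cetuximab arm KLF10 rose by 0.97 ± 0.12 and KLF13 by 0.45 ± 0.14 between time 0 and 5 min (adjusted p = 2.36e-09 and 0.0273), where 4.41% of all genes rose. The KLF2 call at time 0 was lost without arrays numbered 1 or 2 (adjusted p = 0.0679 and 0.308), whereas the KLF10 call was kept in 22 of 22 alternatives.

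The time 0 gap moved every value taken relative to it. Early differences relative to time 0 passed for KLF2 (0.53 ± 0.13, adjusted p = 0.0125) and KLF10 (0.73 ± 0.13, adjusted p = 0.000123), 2 of 9 higher where 0.652% of all genes were. Late differences relative to time 0 passed for KLF10 alone (0.60 ± 0.13, adjusted p = 0.0011), where 1.93% of all genes were higher. KLF10 itself differed by only -0.07 ± 0.044 between the arms over the days (adjusted p = 0.37), so both of these values rest on the 6 arrays of time 0. Without arrays numbered 1 its late value was 0.59 with an adjusted p of 0.0632.

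KLF9 separated the arms at 6 times without passing the test at any. It was lower in cetuximab cells at 5 min (5.48, 5.50 and 5.47, against 5.59, 5.73 and 5.59 in control cells) and higher at 2 h (5.44, 5.30 and 5.46, against 5.10, 5.24 and 5.17 in control cells) and, barely, on day 3 (4.78, 4.86 and 4.82, against 4.78, 4.56 and 4.75 in control cells). Such separation was seen in 7.33%, 5.89% and 8.38% of all genes, and the differences of -0.15, 0.23 and 0.12 had adjusted p-values of 0.934, 0.781 and 0.841. The other 3 times were days 5 to 7. On day 5 it had 5.41, 5.42 and 5.37 in cetuximab cells, against 5.16, 5.21 and 4.98 in control cells. On day 6 it had 5.59, 5.61 and 5.49 in cetuximab cells, against 5.27, 5.32 and 5.22 in control cells. On day 7 it had 5.59, 5.63 and 5.81 in cetuximab cells, against 5.56, 5.48 and 5.22 in control cells. All 9 cetuximab arrays lay above the control arrays of their day. Taken singly, these days separated the arms this way in 7.45%, 8.05% and 6.41% of all genes. The share of genes separated on all 3 days, or at 6 times, was not counted. The differences of 0.28, 0.30 and 0.26 had adjusted p-values of 0.389, 0.434 and 0.501, and the late window gave 0.13 ± 0.047 (adjusted p = 0.0672). With array weights the late value was 0.14 and passed (adjusted p = 0.0354). A trend over days 1 to 7 passed for 0 of 9 members, where 1.34% of all genes did, and that of KLF9 was 0.07 ± 0.024 per day (adjusted p = 0.197).

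KLF3, KLF4, KLF5 and KLF7 showed no call between the arms in the windows or at any time. Their late differences were -0.03 ± 0.057, -0.02 ± 0.069, -0.02 ± 0.17 and -0.03 ± 0.069. The 95% intervals of KLF4 (-0.16 to 0.12) and KLF5 (-0.36 to 0.32) give the range of change that these arrays leave possible. KLF4 had 5.77, 5.68 and 5.75 in cetuximab cells on day 6, against 5.83, 5.84 and 5.82 in control cells, a small separation (7.01% of all genes) that did not pass. KLF7 had 4.15, 4.18 and 3.96 in cetuximab cells on day 1, against 4.53, 4.47 and 4.25 in control cells, also without overlap (5.33% of all genes) and without passing (-0.32 ± 0.18, adjusted p = 0.584). When the 14 times after time 0 were tested jointly (F test), KLF6 (adjusted p = 8.58e-07) and KLF13 (adjusted p = 0.0345) passed, 2 of 9 members where 10.6% of all genes did. Without arrays numbered 2 both calls were lost (adjusted p = 0.0943 and 0.949). KLF13 also lost its call without arrays numbered 3 and without the filter on dim probes (adjusted p = 0.223 and 0.0637). KLF2 was added with array weights, a trended robust prior and the random block (adjusted p = 0.0185, 0.0499 and 0.0173). Over the 15 single times there were 7 calls in all, in KLF2, KLF6, KLF10 and KLF13, out of 135 tests of members, where 1.16% of all such tests over all genes were called.

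KLF5, a growth-promoting factor of epithelial progenitors, varied between arrays of a group more than nearly any other gene. Its residual SD was 0.58, against a median of 0.146 over all genes, and 4 of 12735 genes had a larger one. The spread followed the replicate numbers of the labels. From 4 h to day 4 the arrays numbered 3 in the cetuximab arm had 5.87 to 6.31, against 7.10 to 7.90 in the 12 other arrays. In the control arm they had 5.69 to 6.39, against 6.52 to 8.14. At each of these times, in both arms, the array numbered 3 was the lowest of its group, by means of -1.43 in cetuximab cells and -1.23 in control cells. At the other times the mean difference was 0.01 in cetuximab cells and 0.10 in control cells, with moves in both directions. The array numbered 3 was the lowest at time 0 in the cetuximab arm (7.96, against 8.48 and 9.34 in the others). The same held in the control arm (7.57, against 7.89 and 8.07). In the cetuximab arm it was the highest on day 6 (7.41, against 6.78 and 7.39) and day 7 (7.83, against 7.13 and 7.08). On day 5 it lay between the others there (7.20, against 7.23 and 7.12). In the control arm it was the highest on day 5 (8.06, against 7.06 and 7.13) and day 6 (7.84, against 6.76 and 7.12). It was also the highest there on day 7 (7.39, against 7.19 and 7.19).

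**Figure D4:**
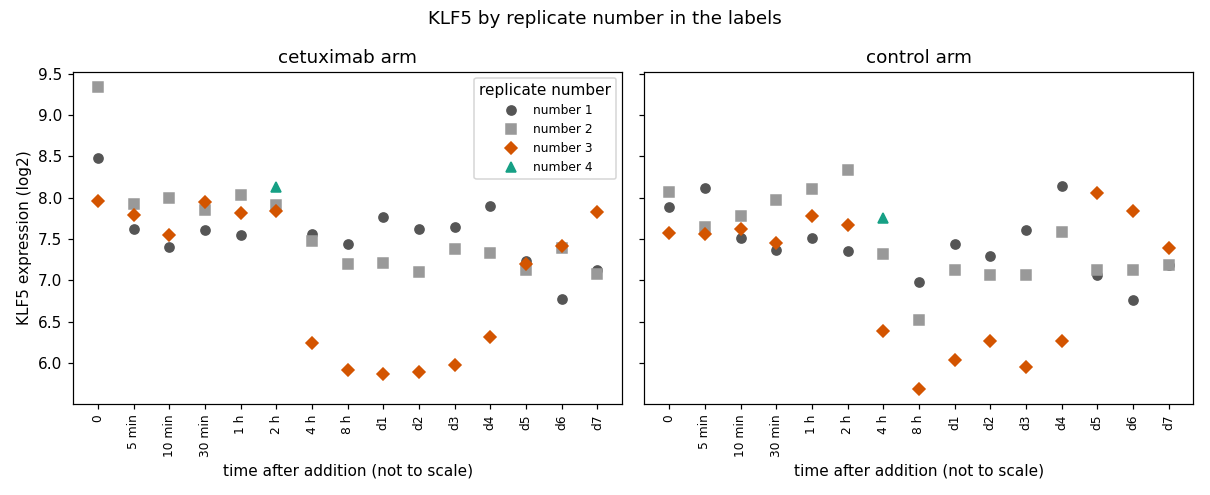
KLF5 expression (log2, vertical axis) against time (horizontal axis, not to scale) in the cetuximab arm (left) and the control arm (right), with 1 point per array and the marker shape giving the replicate number in the labels. From 4 h to day 4 the arrays numbered 3 lie at 5.69 to 6.39 in both arms, below the other arrays of their group.

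The same 12 arrays were lower by more than 1 log2 unit in both arms in 11 of 12735 genes, and higher in 0. Beside KLF5 these included PTMA, G3BP1 and LGALS3, a gene that KLF3 represses in mouse. Other members moved with them by less, with KLF4 at -0.53 in cetuximab cells and -0.49 in control cells, KLF3 at -0.26 in cetuximab cells and -0.29 in control cells, and KLF13 in the other direction at 0.30 in cetuximab cells and 0.21 in control cells. With all arrays, KLF5 differed between the days and time 0 by -1.49 in cetuximab cells and by -0.72 in control cells (adjusted p = 0.000156 and 0.0761). Without every array numbered 3, at all times, the values were -1.57 in cetuximab cells and -0.71 in control cells (adjusted p = 2.2e-07 and 0.00896). Without the 12 low arrays alone they were -1.21 in cetuximab cells and -0.48 in control cells (adjusted p = 1.06e-06 and 0.0482), and since those arrays were picked for their low KLF5, this last pair is a description and not a test. Without arrays numbered 2 the cetuximab value was -1.18 (adjusted p = 0.0657). At time 0 KLF5 had 8.48, 9.34 and 7.96 in cetuximab arrays, against 7.89, 8.07 and 7.57 in control arrays, a difference of 0.75 that did not pass (adjusted p = 0.469).

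Within the family, levels over the 30 group means (each the mean of 3 arrays, all sharing the course of the culture) were most alike for KLF2 and KLF4 (r = 0.96), KLF2 and KLF6 (0.96) and KLF4 and KLF6 (0.90). KLF10 followed KLF2 with r = 0.89. KLF7 was alike to no other member (r from -0.12 to 0.19). Over the same group means the genes closest to KLF2 were TIPARP and IER3 (r = 0.98 each), those closest to KLF4 were PPP1R15A and CSRNP1 (0.99 each), and those closest to KLF6 were RNF39 and KDM3A (0.98 each). KLF10 was closest to TRAF4 and KDM6B (0.95 each), KLF13 to RDH10 (0.94) and MNT (0.93), KLF9 to UBALD2 and FBXO34 (0.91 each), and KLF5 to CD164 (0.94) and CDC42 (0.93). The closest genes were less alike for KLF3 (GNE, 0.84, and GRB7, 0.82) and for KLF7 (SP140L, 0.61, and LINC02900, 0.54). These are descriptions over points of 1 culture series.

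Genes around the family were read in the same fit. Of 13 known KLF target genes that were tested, 3 were higher and 2 lower over the days with cetuximab, where 7.39% of all genes were higher and 5.96% lower. CCL5, the chemokine that KLF13 activates in T lymphocytes, was higher by 0.45 ± 0.038 (adjusted p = 1.93e-15). PDGFA, a KLF5 target in smooth muscle, was higher by 0.31 ± 0.085 and cyclin D1 (CCND1) by 0.09 ± 0.029 (adjusted p = 0.00711 and 0.0321). FGFBP1, a growth factor carrier and KLF5 target, was lower with a difference of -0.30 ± 0.029 and ODC1, the polyamine synthesis enzyme that KLF4 represses, with one of -0.11 ± 0.038 (adjusted p = 2.33e-13 and 0.0357). LGALS3 differed by 0.21 ± 0.14 and did not pass (adjusted p = 0.411). In the early window 0 of the 13 were higher and 4 were lower, where 4.09% and 5.96% of all genes were. The 4 were CDH1, CCND1, ODC1 and the KLF2 target THBD. The median of the 13 was 0.085 late, against 0.0032 over all genes.

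Of 12 factors that act on KLF promoters or sit upstream of them, 1 was lower over the days with cetuximab, FOXO1 (-0.16 ± 0.043, adjusted p = 0.00632), and 0 were higher, against late shares of 5.96% lower and 7.39% higher over all genes. In the early window FOXO3 (-0.22 ± 0.040) and ELK1 (-0.10 ± 0.029) were lower (adjusted p = 4.44e-05 and 0.0143), 2 of 12 where 5.96% of all genes were lower. Over the days of the control culture 7 of these 12 were lower than at time 0, where 21.1% of all genes were, with a median of -0.33 (0.0086 over all genes). They included MEF2D (-1.14 ± 0.060), SRF (-0.74 ± 0.080) and MRTFA (-0.67 ± 0.091). Of 10 corepressors, coactivators and ubiquitin ligases of KLFs, 1 was higher late and 1 lower early, against 7.39% and 5.96% of all genes. These were the KLF5 ubiquitin ligase WWP1 (0.11 ± 0.037, limma, adjusted p = 0.0377) and CREBBP (-0.16 ± 0.039, adjusted p = 0.00402). Among 6 SP factors, which bind the same GC boxes, 1 was lower late and 1 higher early, against 5.96% and 4.09% of all genes. SP8 was lower late (-0.16 ± 0.039, limma, adjusted p = 0.00214) and SP1 higher early (0.15 ± 0.040, adjusted p = 0.00865). SP4 differed late by 0.19 ± 0.068 without passing (adjusted p = 0.0553). The other KLF genes that passed the filter, KLF1, KLF12 and KLF15, showed no call in either window or in the control days.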

How the data were processed

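Total RNA of BxPC-3 cells was labelled with biotin and hybridised to Illumina HumanHT-12 v4 arrays. The values deposited by the authors were taken as log2 expression, an inference from their range of 0.26 to 13.76. The submitters' processing notes name limma without a version, and for background correction and normalization the method is not given in the sources used here. Arrays were grouped by arm and time from the labels, and the 90 arrays were all used. Probes with 1 gene symbol (30096 of 47292) and a mean of at least 4.24 were kept, and the brightest probe stood for each gene, giving 12735 genes. A mean per group was fitted with limma 3.58.1 in R 4.3.3 (lmFit, eBayes, 60 residual degrees of freedom), with two-sided contrasts and Benjamini-Hochberg adjustment over all genes within each contrast. The fit was tested on simulated arrays with independent noise. That setting does not cover arrays of the same replicate number deviating together. Alternatives were other normalizations, filters, probe rules, weights, priors and blocks, and leaving out arrays or days. The members and gene lists were chosen with earlier results of these data known. Members are all named, with the 2 genes most correlated with each and up to 4 genes per list with the largest late differences. Further genes called in a window, MEF2D, SRF, MRTFA, PTMA and G3BP1 were named after their values were seen. Promoter windows came from RefSeq. Precision is limited by the 3 arrays per group.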

Additional observations from a re-analysis of the deposited data

Results flagged for a closer look

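In 3 members a test of change in the difference between the arms passed (limma, adjusted p under 0.05). The difference between the arms in KLF6 was larger in the late than in the early window by 0.21 log2 (adjusted p = 0.00122). Without arrays numbered 2 this value did not pass (0.22, adjusted p = 0.0522). The difference between the arms in KLF10 lay above that at time 0 by 0.73 in the early window (adjusted p = 0.000123). In the late window it did so by 0.60 (adjusted p = 0.0011). For KLF2, the early difference lay above that at time 0 by 0.53 (adjusted p = 0.0125). The KLF2 and KLF10 values share the 6 arrays of time 0, the moment of addition, where both genes were lower in the cetuximab arm. The early differences themselves were 0.06 for KLF10 and 0 for KLF2, and neither passed. The late difference of KLF10 (-0.07) did not pass either. With 3 arrays in a group, single arrays were not tested as outliers.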

How the results depend on the processing

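No called result changed direction under any alternative. The late KLF5 difference, which was not called, was -0.02 with all arrays and 0.07 without arrays numbered 3. Results for single members kept their call in 456 cases and lost it in 61, and a further 67 results for controls at single times kept it in 1029 of 1072 cases. The number of members called changed under some alternatives. The counts below include settings that left it unchanged or nearly so. Leaving out the arrays of 1 replicate number (1 to 4) in turn, the late window gave 2 members without number 1 or 3, 1 without number 2 and 3 without number 4, a number that 2 arrays carry. In the same way late minus early gave 0 to 1, the late window relative to time 0 gave 0 to 2, the single times 1 to 6 calls, against 7 with all arrays, the F test 0 to 2 and control day 1 against 8 h gave 2 to 4. For the late window relative to time 0, 2 members passed after quantile normalization, 3 with array weights and 2 without the arrays numbered 3 from 4 h to day 4, an alternative chosen after seeing the data. Without those arrays 1 member passed for control day 1 against 8 h. Fitting only the groups compared left 2 calls at single times, and without a filter on dim probes 1 member passed the F test. Relative to time 0, 2 members passed in the early window. In each case the cause was not tested.

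Samples of the same replicate number deviated together only in part (43 pairs, r from -0.036 to 0.57, median 0.13, 26 over 0.1), and the labels do not say that a number marks a shared culture or day. With the replicate number as a fixed block, 3 members passed in the late window, and with it as a random block within time 4 passed, KLF9 being added, and the late window relative to time 0 gave 3. Over all genes the late calls were 1796 with the fixed block and 2067 with the random block, against 1700 without a block. A stricter filter (4.39, 11028 genes) left 8 members and dropped KLF7, whose level lies near background.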
